A study of Mus musculus with 48 samples.

Results

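JQ1, a small molecule that displaces BET proteins from acetylated histones, was compared with vehicle in the whole left ventricle of wild type mice at 20 weeks of age. The comparison rests on 6 of the 48 libraries of the series, assigned to groups by their labels: 3 from wild type mice given JQ1 and 3 from wild type mice given vehicle. This comparison and the gene lists used below were chosen with earlier results of these data known. All genes with enough reads were examined, 15971 in all. The mice were of the FVB strain and the JQ1 dose was 50 mg/kg; the sources used here give neither the route nor the length of treatment. Other libraries used for comparison are wild type ventricle with JQ1 or vehicle at 8 weeks, ventricle of PLNR9C mice with JQ1 or vehicle at 20 weeks, and pooled wild type cardiomyocytes and non-myocytes with JQ1 or vehicle at 16 weeks. PLNR9C is a mutant form of phospholamban known from inherited human dilated cardiomyopathy. The wild type libraries at 16 and 20 weeks carry the disease stage label DCM just as the mutant ones do, although their genotype is wild type. Per the series' design text, the replicates are separate biological samples.

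BET proteins (among them Brd2, Brd3 and, in testis, Brdt) bind acetylated lysines on histones through their bromodomains. They help to bring the elongation factor P-TEFb, made of Cdk9 and a cyclin T, to promoters, where it releases paused RNA polymerase. Much of the P-TEFb in a cell is held inactive by Hexim1 in a particle built on 7SK RNA, whose cap is added by Mepce. In the heart BET inhibitors have been studied mainly for their effects on stress and fibrosis genes of failing ventricle.

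The 6 libraries held 20742601 to 25224516 reads in genes, and mitochondrially encoded genes took 13.6% to 15.3% of them. The 3 JQ1 libraries lay at 22.0 to 33.5 and the 3 vehicle libraries at -29.4 to -24.9 on the first principal component of log2 levels, which held 61.1% of the variance. On the second component, with 13.6%, JQ1 replicate 1 lay at 22.3 and the other JQ1 libraries at -15.7 and -11.3. Replicates within a group differed by more than sampling noise (chi-square per degree of freedom 8.82 to 20.0). Levels are given as CPM, read counts per 1000000 reads of library size scaled by the trimmed mean of M values (TMM), and are not divided by gene length. Cardiomyocyte markers were abundant in every library, with a summed level of 98890 to 109100 CPM with JQ1 and 81400 to 93440 CPM with vehicle. Of these 12 markers 2 rose and none fell, and the rises numbered 1 without JQ1 replicate 2 or vehicle replicate 2 or 3. Fold changes are on the log2 scale with their standard error, and p-values are from edgeR's quasi-likelihood test with Benjamini-Hochberg adjustment over all 15971 genes. A gene is called when the adjusted p is under 0.05. In whole ventricle, fewer cells of a type and less RNA per cell cannot be told apart.

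JQ1 altered the ventricle broadly, with more and deeper falls than rises. Of the 15971 genes, 1960 rose (12.3%) and 2378 fell (14.9%), 27.2% in all. The median size of the log2 change was 0.43 among the rises and 0.73 among the falls. At least 2-fold rises numbered 265 (1.66% of the genes tested) and at least 2-fold falls 805 (5.04%). The fallen genes were also the scarcer ones, with a median of 10.8 CPM in vehicle libraries, against 39.6 CPM in JQ1 libraries for the risen genes. The 3 JQ1 libraries lay wholly apart from the 3 vehicle libraries in 1887 of the 1960 rises and 2244 of the 2378 falls. Over all genes tested, called or not, 3010 lay wholly higher with JQ1 (18.8%) and 3197 wholly lower (20.0%). The median log2 change over all genes was -0.01.

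**Figure D1:**
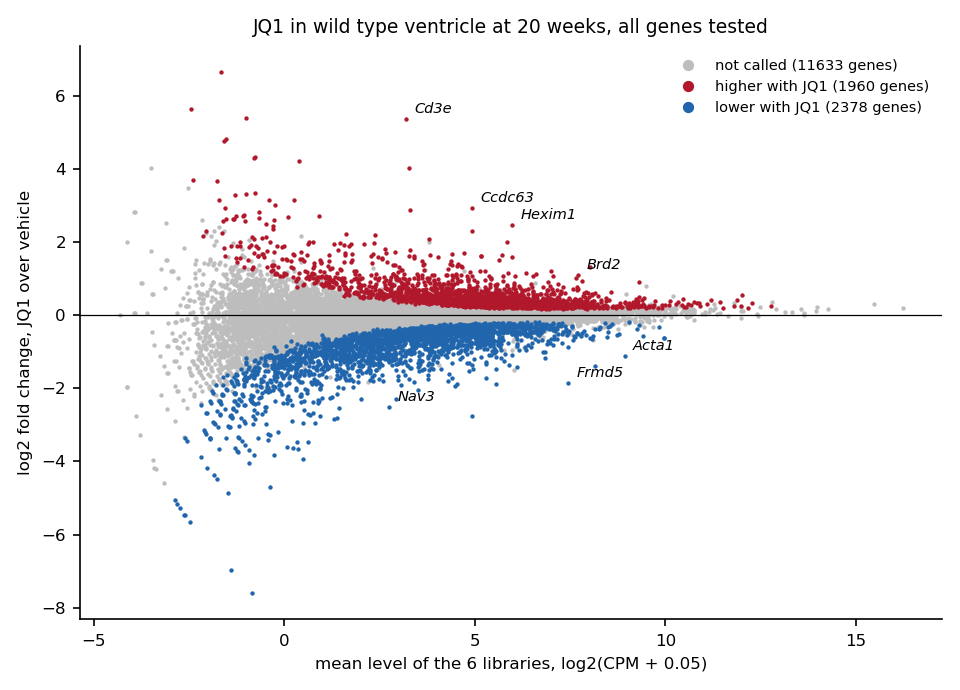
Log2 fold change of JQ1 over vehicle against the mean level of the 6 libraries, log2(CPM + 0.05), for the 15971 genes tested (points). Coloured points are the 1960 rises and the 2378 falls and grey points the genes not called. The fitted changes of genes with no reads in a group, at the far left, depend on the prior count and are no measure of size.

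The gene of the P-TEFb inhibitor Hexim1 gave a steep rise with narrow error. Hexim1 (chromosome 11, 103116325 to 103119724 on GRCm38) stood at 121, 106 and 93.1 CPM with JQ1, against 18.7, 18.6 and 20.4 CPM with vehicle. All 3 JQ1 libraries were far above the 3 vehicle ones (2.47 ± 0.10, adjusted p = 2.9e-11). Brd2, a BET protein and so itself a target of the drug, stood at 275, 298 and 283 CPM with JQ1, against 129.5, 142 and 126 CPM with vehicle. The groups did not overlap (1.11 ± 0.07, adjusted p = 6.7e-09). Cnnm4, which encodes a magnesium transport protein, stood at 60.2, 47.6 and 43.1 CPM with JQ1, against 10.4, 9.597 and 10.2 CPM with vehicle, again without overlap (2.32 ± 0.11, adjusted p = 4.3e-10).

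The start regions of these 3 genes are shown because they belong to a member of the P-TEFb particle, to a target of the drug and to another of the steepest rises. Each runs from 250 bases before the gene's start to 50 after it, 5′ to 3′ on the gene's strand, from RefSeq on GRCm38.p6. The regions are chr11:103116075-103116374 (plus strand) for Hexim1, chr17:34122558-34122857 (minus strand) for Brd2 and chr1:36471347-36471646 (plus strand) for Cnnm4. Capitals mark matches on either strand to 5 motifs. These were the TATA box as TATAAA, the CCAAT box as CCAAT, the GC box as GGGCGG, the E-box as CACGTG and the cyclic AMP response element, spelled TGACGTCA.
Hexim1: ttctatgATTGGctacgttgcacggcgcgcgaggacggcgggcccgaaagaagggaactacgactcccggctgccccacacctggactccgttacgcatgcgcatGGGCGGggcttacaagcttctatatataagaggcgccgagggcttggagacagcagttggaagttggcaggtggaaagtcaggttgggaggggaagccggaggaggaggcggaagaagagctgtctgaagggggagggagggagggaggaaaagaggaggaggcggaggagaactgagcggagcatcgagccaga
Brd2: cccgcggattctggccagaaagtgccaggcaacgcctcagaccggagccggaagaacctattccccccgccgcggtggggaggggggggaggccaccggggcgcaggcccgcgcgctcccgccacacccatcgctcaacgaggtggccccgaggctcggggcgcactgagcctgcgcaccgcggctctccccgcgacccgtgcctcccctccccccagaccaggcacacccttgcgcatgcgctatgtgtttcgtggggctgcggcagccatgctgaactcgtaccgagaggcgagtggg
Cnnm4: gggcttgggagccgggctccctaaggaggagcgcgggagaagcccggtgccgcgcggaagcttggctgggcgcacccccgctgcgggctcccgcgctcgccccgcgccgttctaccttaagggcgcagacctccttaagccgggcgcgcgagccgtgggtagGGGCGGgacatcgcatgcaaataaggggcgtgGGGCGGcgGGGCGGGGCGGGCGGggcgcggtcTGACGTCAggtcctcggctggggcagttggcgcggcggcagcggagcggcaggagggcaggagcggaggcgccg
These letters are rich in G and C: 61.0% in Hexim1, 72.3% in Brd2 and 76.3% in Cnnm4, with 21, 32 and 42 CG pairs. The median of the 32851 promoters in the same RefSeq table is 52.7%, with 7 CG pairs. Hexim1 holds 1 CCAAT box, read on the other strand, and 1 GC box, motifs found in 37.4% and 35.7% of all these promoters. Cnnm4 holds 5 matches to the GC box, some of which overlap, and 1 cyclic AMP response element, found in 1.79% of the promoters. Brd2 holds no match to any of the 5 motifs. None of the 3 holds the TATA box as spelled here (13.6% of promoters) or the E-box (7.15%). Matches are a description and not sites, and the 3 genes were picked, so nothing is read from them about the risen genes as a set.

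Among genes with at least 10 CPM in the higher group, the steepest rise was that of Cd3e, the epsilon chain of the T cell receptor complex. Cd3e stood at 25.9, 15.5 and 12.1 CPM with JQ1, against 0.3896, 0.533 and 0.355 CPM with vehicle (5.36 ± 0.38, adjusted p = 9.1e-07). It was read 500, 342 and 248 times with JQ1 and 9, 12 and 7 times with vehicle. Of the other CD3 chains, Cd3d had at most 1 read and Cd3g at most 4 reads in any of the 6 libraries, too few to be tested. Of 15 listed T and NK cell markers 5 could be tested, of which Cd3e rose and Cd4 fell (-1.46 ± 0.36, adjusted p = 0.0055). The other fall, Il7r (-2.41 ± 0.80, adjusted p = 0.034), lost its call without JQ1 replicate 1, 2 or 3 or vehicle replicate 1 (adjusted p up to 0.14). The 14 markers in the table summed to 13.2 to 26.4 CPM with JQ1 and 2.74 to 3.896 CPM with vehicle, and nearly all of the JQ1 sum was Cd3e. Without Cd3e the other 13 summed to 0.517, 1.495 and 1.074 CPM with JQ1, against 3.506, 3.332 and 2.383 CPM with vehicle, so the rest of the list lay lower in all 3 JQ1 libraries. Beyond these values, the part of T cells in the Cd3e rise was not tested.

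The remaining steep rises were of genes with varied roles. Ccdc63, a coiled-coil protein gene, stood at 37.3, 52.8 and 70.4 CPM with JQ1, against 6.41, 5.91 and 8.82 CPM with vehicle (2.93 ± 0.24). Zswim6, a zinc finger protein gene, stood at 105, 78.4 and 93.2 CPM with JQ1, against 20.8, 21.7 and 27.2 CPM with vehicle (1.99 ± 0.12). In neither gene did the groups overlap, as the rule that chose the steep rises and falls required. The other steep rises were those of Gpr137c (1.78), the imprinted, retrotransposon-derived gene Peg10 (1.74), the glucocorticoid-induced gene Glcci1 (1.71), the neuronal pentraxin receptor gene Nptxr (1.68), Sned1 (1.65) and the transcriptional repressor gene Zfp703 (1.62). These 11 rises had an adjusted p of 3.1e-05 or lower and were called without any 1 of the 6 libraries.

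Steep falls at that level were likewise spread over genes of varied roles. Frmd5, a FERM domain protein gene, stood at 48.5, 86.5 and 93.95 CPM with JQ1, against 286, 281 and 258 CPM with vehicle (-1.85 ± 0.24, adjusted p = 0.00048). JQ1 replicate 1 was the lowest of the 6 for Frmd5, and no JQ1 library came near a vehicle one. Meox1, a homeobox transcription factor gene, stood at 1.86, 3.897 and 4.64 CPM with JQ1, against 10.9, 14.97 and 13.4 CPM with vehicle (-1.904 ± 0.25, adjusted p = 0.00013). Timp4, an inhibitor of matrix metalloproteinases, stood at 3.05, 3.53 and 1.02 CPM with JQ1, against 19.4, 9.82 and 8.42 CPM with vehicle (-2.31 ± 0.51, adjusted p = 0.0085). The groups did not overlap in Meox1 or Timp4 either, as the rule required.

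Another 8 steep falls had adjusted p of 0.0021 or lower and, by the rule that chose them, no overlap. They were Nav3, a neuron navigator gene (-2.52), the xenobiotic cytochrome P450 gene Cyp2b10 (-2.06), Galntl2 (-1.93), the olfactomedin-like gene Olfml2b (-1.89), Fam198b (-1.88), the cytochrome b561 gene Cyb561 (-1.84), the Nogo receptor gene Rtn4r (-1.81) and the protein kinase N gene Pkn3 (-1.73). These 11 falls were called without any 1 library.

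**Figure D2:**
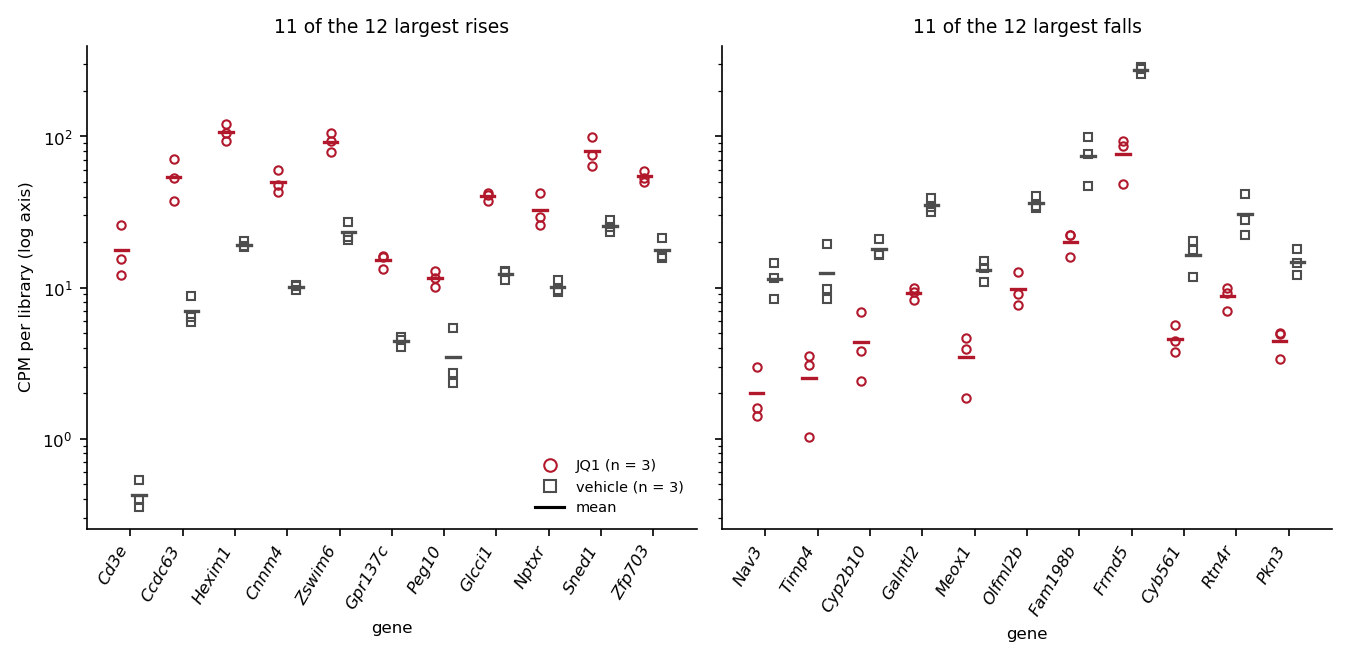
CPM per library on a log axis for 11 of the 12 steepest rises (left) and 11 of the 12 steepest falls (right) with at least 10 CPM in the higher group, with JQ1 libraries to the left of vehicle libraries and n = 3 each. In all 22 genes the groups lie apart, as the rule that chose them required.

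Genes of the BET and P-TEFb machinery rose more often than they fell: of 15 tested, 6 rose and 1 fell, with a median log2 change of 0.20. Besides Hexim1 and Brd2, Mepce stood at 52.7, 58.9 and 51.3 CPM with JQ1, against 32.1, 29.8 and 28.04 CPM with vehicle (0.86 ± 0.08, adjusted p = 1.3e-06). Aff4, a scaffold of the super elongation complex, stood at 278, 216 and 250.5 CPM with JQ1, against 192, 165 and 202 CPM with vehicle (0.41 ± 0.09, adjusted p = 0.0032). The BET gene Brd3 was not called, at 64.4, 59.6 and 55.3 CPM with JQ1, against 53.7, 51.1 and 53.7 CPM with vehicle (0.18 ± 0.08, adjusted p = 0.092), though it was called without JQ1 replicate 3.

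Of 21 listed histone genes 18 were tested, of which 10 rose (55.6%, beside 12.3% of all genes) and none fell (beside 14.9%), with a median of 0.71. H2afx, the variant marked at DNA breaks, stood at 16.3, 13.5 and 13.9 CPM with JQ1, against 5.15, 4.26 and 4.82 CPM with vehicle (1.61 ± 0.14, adjusted p = 5.0e-07). H3f3b, which encodes the replacement histone H3.3, stood at 105, 144 and 149.7 CPM with JQ1, against 58.7, 65.98 and 56.02 CPM with vehicle (1.14 ± 0.12, adjusted p = 4.8e-06). The linker histone gene Hist1h1c (0.92 ± 0.10) and Hist1h2bc (1.098 ± 0.12) also rose without overlap of the groups. Near-identical histone copies may share reads, so single members are uncertain.

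Immediate early genes, whose products are among the first made after a stimulus, gave calls for 6 of 27, all upward (22.2%, beside 12.3% of all genes), with a median of 0.37. Jund stood at 117, 113 and 109 CPM with JQ1, against 48.9, 51.8 and 50.6 CPM with vehicle (1.16 ± 0.07, adjusted p = 5.9e-09). Klf4 (0.82 ± 0.11), the orphan receptor gene Nr4a2 (1.48 ± 0.25) and Ier2 (0.75 ± 0.14) rose too, each without overlap. The count of rises was 10 without vehicle replicate 3, and the count of falls was 1 without vehicle replicate 1 and 2 without vehicle replicate 2.

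Myc itself, the proto-oncogene best known as a target of JQ1 in tumours, was scarce: 2.53, 1.54 and 1.56 CPM with JQ1, against 2.68, 3.47 and 3.09 CPM with vehicle (-0.72 ± 0.23, adjusted p = 0.029). Its call was lost without JQ1 replicate 2 or 3 or vehicle replicate 2 or 3 (adjusted p up to 0.12). Of 23 genes of Myc and ribosome biogenesis, 7 rose (30.4%, beside 12.3% of all genes) and 4 fell (17.4%, near 14.9%), around a median of -0.03. The falls numbered 1 without JQ1 replicate 2 or 3 or vehicle replicate 3. The nucleolar gene Nop56 stood at 49.01, 50.2 and 46.5 CPM with JQ1, against 22.2, 21.2 and 19.9 CPM with vehicle (1.201 ± 0.09, adjusted p = 4.7e-08). The Myc antagonist genes Mxd1 (1.096 ± 0.11) and Mxi1 (0.37 ± 0.08) and the nucleolin gene Ncl (0.30 ± 0.07) rose.

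Of 32 cell cycle genes 3 rose (9.38%) and 5 fell (15.6%), shares near the 12.3% and 14.9% of all genes. The rises numbered 5 without vehicle replicate 2, and the falls 3 without vehicle replicate 2. The sliding clamp gene Pcna (0.72 ± 0.09) and the D-type cyclin gene Ccnd3 (0.34 ± 0.06) rose, and the helicase gene Mcm3 (-1.16 ± 0.18) and the kinase gene Cdk6 (-0.77 ± 0.16) fell. Of 17 cell cycle inhibitors and p53 targets, 4 rose (23.5%, beside 12.3% of all genes) and 1 fell (5.88%, beside 14.9%). The falls numbered 0 without JQ1 replicate 1 or 2 or vehicle replicate 1, and 2 without vehicle replicate 3. Sesn2, a stress sensor upstream of mTORC1, stood at 13.3, 9.83 and 10.9 CPM with JQ1, against 4.76, 3.87 and 4.97 CPM with vehicle (1.32 ± 0.15, adjusted p = 8.4e-06). Cdkn1a, which encodes the inhibitor p21, stood at 64.3, 30.3 and 26.9 CPM with JQ1, against 17.5, 13.9 and 21.9 CPM with vehicle (1.19 ± 0.31, adjusted p = 0.022). JQ1 replicate 1 was the highest for Cdkn1a, and its call was lost without vehicle replicate 1 or 2 (adjusted p up to 0.073).

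Genes of protein turnover and of stress defence rose in several lists. Of 20 autophagy and ubiquitin ligase genes, 11 rose (55.0%, beside 12.3% of all genes) and 1 fell (5.0%, beside 14.9%), at a median of 0.24. The rises numbered 7 without vehicle replicate 3, and the falls 2 without JQ1 replicate 3. The transcription factor gene Foxo1 stood at 113, 87.3 and 102 CPM with JQ1, against 73.02, 63.2 and 67.2 CPM with vehicle (0.57 ± 0.10, adjusted p = 0.00057). The lysosomal protease gene Ctsl (0.35 ± 0.07) and the autophagosome gene Map1lc3b (0.32 ± 0.07) rose, while the gene of the lysosomal regulator Tfeb fell (-0.56 ± 0.10, adjusted p = 0.00049). Of 23 antioxidant and NRF2 genes, 8 rose (34.8%, beside 12.3% of all genes) and 2 fell (8.7%, beside 14.9%), at a median of 0.20. The falls numbered 1 without JQ1 replicate 1, 2 or 3 or vehicle replicate 1 or 3. Gclc, the catalytic subunit of the first enzyme of glutathione synthesis, stood at 96.2, 70.05 and 77.7 CPM with JQ1, against 33.3, 38.5 and 37.7 CPM with vehicle (1.16 ± 0.10, adjusted p = 3.8e-07). The NRF2 gene Nfe2l2 (0.42 ± 0.07) and the peroxidase gene Gpx1 (0.50 ± 0.08) rose, and the NRF2 target Nqo1 fell (-0.43 ± 0.10, adjusted p = 0.0041).

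The integrated stress response, by which Atf4 drives amino acid supply, was called in both directions. Of 19 genes, 7 rose (36.8%, beside 12.3% of all genes) and 3 fell (15.8%, near 14.9%), at a median of 0.26. The falls numbered 1 without JQ1 replicate 1. The amino acid transporter gene Slc7a5 stood at 39.6, 32.6 and 36.1 CPM with JQ1, against 12.9, 13.1 and 17.7 CPM with vehicle (1.31 ± 0.12, adjusted p = 5.7e-07). Mthfd2, a mitochondrial folate enzyme, stood at 4.03, 3.897 and 4.197 CPM with JQ1, against 1.51, 0.755 and 1.22 CPM with vehicle (1.79 ± 0.20, adjusted p = 5.1e-06). Chac1, a glutathione-degrading enzyme, went the other way, at 2.12, 2.76 and 3.17 CPM with JQ1, against 7.099, 5.91 and 5.98 CPM with vehicle (-1.23 ± 0.16, adjusted p = 2.6e-05). Of 19 unfolded protein response genes the ubiquitin ligase gene Syvn1 alone was called (0.36 ± 0.09), a share of 5.26% beside 12.3% of all genes. Rises numbered 2 without vehicle replicate 3. Of 18 heat shock genes Dnajb4 alone was called (-0.24 ± 0.08, adjusted p = 0.031), a share of 5.56% beside 14.9% of all genes. That call was lost without JQ1 replicate 1 or 3 or vehicle replicate 1 or 3 (adjusted p up to 0.14).

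Among genes of innate immunity the calls were mostly downward. Of 19 innate immune sensors 10 fell (52.6%, beside 14.9% of all genes) and 1 rose (5.26%, beside 12.3%), with a median of -0.51. The rises numbered 0 without JQ1 replicate 1 or 3 or vehicle replicate 1 or 3. Tlr7, a receptor for single-stranded RNA, stood at 0.517, 0.634 and 0.732 CPM with JQ1, against 4.46, 4.798 and 4.11 CPM with vehicle (-2.81 ± 0.22, adjusted p = 1.9e-07). Tmem173, which encodes STING, an adaptor of cytosolic DNA sensing, stood at 1.09, 1.31 and 1.61 CPM with JQ1, against 5.32, 7.06 and 7.55 CPM with vehicle (-2.303 ± 0.24, adjusted p = 2.7e-06). Tlr4, the receptor for bacterial lipopolysaccharide, stood at 7.29, 7.02 and 8.69 CPM with JQ1, against 16.8, 18.7 and 23.7 CPM with vehicle (-1.36 ± 0.14, adjusted p = 4.0e-06). The groups did not overlap in these 3 genes. Tlr1 had 0 reads in every JQ1 library and 20, 30 and 17 reads in vehicle libraries, so it was at least 7.0-fold lower, with 3 reads per library as the floor.

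Of 27 listed genes of inflammatory cytokines and NF-kB 21 were tested. Of these 10 fell (47.6%, beside 14.9% of all genes) and 1 rose (4.76%, beside 12.3%), with a median of -0.65. The falls numbered 6 without JQ1 replicate 1 and 5 without JQ1 replicate 2, and the rises 0 without JQ1 replicate 1, 2 or 3 or vehicle replicate 1. The NF-kB subunit gene Nfkb1 stood at 54.9, 50.6 and 58.8 CPM with JQ1, against 73.02, 85.04 and 75.8 CPM with vehicle (-0.51 ± 0.08, adjusted p = 0.00011). The subunit genes Relb (-0.59 ± 0.13) and Rela (-0.33 ± 0.08) also fell. Il6, Ccl5 and Cxcl10 were among the 6 with too few reads to be tested.

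Of 30 interferon response genes 9 fell (30.0%, beside 14.9% of all genes) and 2 rose (6.67%, beside 12.3%), at a median of -0.27. The rises numbered 1 without JQ1 replicate 3. Oas2, an antiviral enzyme, stood at 8.84, 7.93 and 11.7 CPM with JQ1, against 24.5, 20.6 and 18.1 CPM with vehicle (-1.15 ± 0.16, adjusted p = 5.5e-05). Gbp2 (-0.98 ± 0.18) and Oasl2 (-0.87 ± 0.16) fell too. The gene of the signal transducer Stat2 rose, at 29.9, 31.5 and 40.4 CPM with JQ1, against 26.3, 19.7 and 18.4 CPM with vehicle (0.66 ± 0.13, adjusted p = 0.0018).

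Of 16 complement genes 5 fell (31.2%, beside 14.9% of all genes) and none rose (beside 12.3%), at a median of -0.11. The falls numbered 2 without JQ1 replicate 2 and 3 without vehicle replicate 2 or 3. C4b stood at 16.5, 15.04 and 17.5 CPM with JQ1, against 29, 27.7 and 23.98 CPM with vehicle (-0.72 ± 0.09, adjusted p = 2.5e-05), and C1s fell as well (-0.57 ± 0.10). Of 8 genes of MHC class II presentation 2 fell and 1 rose, and none of these 3 calls held in every fit without 1 library. H2-Eb1 stood at 2.53, 1.18 and 3.42 CPM with JQ1, against 5.97, 4.26 and 4.56 CPM with vehicle (-1.07 ± 0.29, adjusted p = 0.014), and its call was lost without vehicle replicate 1 (adjusted p up to 0.057).

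Extracellular matrix genes, the effectors of fibrosis, gave few calls in these wild type ventricles. None of 40 rose (beside 12.3% of all genes) and 2 fell (5.0%, beside 14.9%), with a median of -0.19. The falls numbered 1 without JQ1 replicate 1 or 2. Col1a1, a chain of the main fibrillar collagen, stood at 69.3, 129.9 and 161 CPM with JQ1, against 109.5, 138 and 121 CPM with vehicle (-0.03 ± 0.27, adjusted p = 0.94). Col3a1 (-0.02 ± 0.34) and the periostin gene Postn (-0.31 ± 0.31) were not called either, and JQ1 replicate 1 was the lowest of the 6 libraries in all 3 of these genes. The falls were of the thrombospondin genes Thbs1 (-0.63 ± 0.16, adjusted p = 0.0087) and Thbs4 (-0.92 ± 0.29, adjusted p = 0.035). The Thbs4 call was lost without JQ1 replicate 1, 2 or 3 or vehicle replicate 1 or 3 (adjusted p up to 0.13).

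Of 24 genes of TGF-beta signalling, upstream of matrix production, 4 rose and 7 fell (median -0.21). These were 16.7% and 29.2%, beside 12.3% and 14.9% of all genes. The falls numbered 3 without JQ1 replicate 2 or 3 and 4 without vehicle replicate 3. Ski, a repressor of the pathway, stood at 240.2, 224 and 243 CPM with JQ1, against 136, 147 and 146 CPM with vehicle (0.72 ± 0.07, adjusted p = 1.0e-06). Ltbp4, a latent TGF-beta binding protein gene, fell (-0.56 ± 0.10), as did the receptor gene Tgfbr2 (-0.49 ± 0.10) and the activin subunit gene Inhba (-2.62 ± 0.50), which was scarce. The ligand gene Tgfb2 stood at 8.79, 10.8 and 11.5 CPM with JQ1, against 14.9, 20.4 and 19.3 CPM with vehicle (-0.81 ± 0.23, adjusted p = 0.024). That call was lost without JQ1 replicate 1, 2 or 3 or vehicle replicate 2 or 3 (adjusted p up to 0.10). The pathway target Ctgf was not called (-0.44 ± 0.38, adjusted p = 0.44).

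Of 22 neurohormonal signalling genes 3 rose (13.6%, near the 12.3% of all genes) and 7 fell (31.8%, beside 14.9%). The endothelin receptor genes fell: Ednrb stood at 9.51, 6.43 and 7.27 CPM with JQ1, against 19.5, 17.8 and 25.8 CPM with vehicle (-1.44 ± 0.16, adjusted p = 5.9e-06), and Ednra fell by 1.09 ± 0.15 on the log2 scale. Nos3, the endothelial nitric oxide synthase gene, stood at 92.2, 65.5 and 83.4 CPM with JQ1, against 52.03, 49.9 and 54.9 CPM with vehicle (0.62 ± 0.10, adjusted p = 0.00019). Npr1, a receptor of natriuretic peptides, rose (0.58 ± 0.11). Of 26 insulin and growth factor signalling genes 2 rose, or 1 without JQ1 replicate 1 or vehicle replicate 3, and 3 fell. These shares, 7.69% and 11.5%, lay below the 12.3% and 14.9% of all genes. The receptor gene Fgfr1 rose (0.72 ± 0.08, adjusted p = 3.7e-06). The growth factor gene Igf1 stood at 7.34, 6.93 and 6.93 CPM with JQ1, against 13.7, 16.6 and 19.1 CPM with vehicle (-1.22 ± 0.15, adjusted p = 1.3e-05), and Igfbp5, which binds it, fell (-0.52 ± 0.11).

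Energy metabolism moved little in size. Of 25 genes of glucose use and glycolysis 9 rose and none fell, with a median of 0.15, and falls numbered 1 without vehicle replicate 1. The glucose transporter gene Slc2a1 stood at 34.5, 33.9 and 31.9 CPM with JQ1, against 19.2, 20.7 and 23.4 CPM with vehicle (0.67 ± 0.08, adjusted p = 2.2e-05). The glycolytic gene Gapdh stood at 1689, 1570 and 1642 CPM with JQ1, against 1217, 1248 and 1162 CPM with vehicle (0.43 ± 0.07, adjusted p = 0.00037), and the insulin-regulated transporter gene Slc2a4 rose (0.38 ± 0.09). Of 27 lipid and sterol synthesis genes 3 rose (11.1%, near the 12.3% of all genes) and none fell (median 0.14). Falls numbered 1 without JQ1 replicate 2 or vehicle replicate 2. The fatty acid synthase gene Fasn stood at 94.7, 82.9 and 98.9 CPM with JQ1, against 54.97, 60.5 and 48.1 CPM with vehicle (0.76 ± 0.09, adjusted p = 1.1e-05).

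Calls among mitochondrial enzymes were few, and none was downward. Of 28 fatty acid oxidation genes 4 rose (14.3%, near the 12.3% of all genes, median 0.09), or 1 without JQ1 replicate 2, 7 without vehicle replicate 1 and 2 without vehicle replicate 2. Of 54 oxidative phosphorylation genes 3 rose (5.56%, below the 12.3% of all genes, median 0.06). These rises numbered 1 without JQ1 replicate 1 or 2 or vehicle replicate 2 or 3, 6 without JQ1 replicate 3 and 9 without vehicle replicate 1. Of 19 tricarboxylic acid cycle genes 5 rose (26.3%, median 0.15), or 3 without JQ1 replicate 1 or 2 or vehicle replicate 2 and 1 without vehicle replicate 3. None of the 13 mitochondrially encoded genes was called (median 0.20). Acadl, an acyl-CoA dehydrogenase gene, stood at 1172, 1207 and 1206 CPM with JQ1, against 1009, 999.5 and 949.5 CPM with vehicle (0.28 ± 0.06, adjusted p = 0.0041). Cycs, which encodes cytochrome c, rose (0.37 ± 0.07), as did Idh3a of the tricarboxylic acid cycle (0.26 ± 0.07).

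Of 17 regulators of mitochondrial genes 4 fell (23.5%, beside 14.9% of all genes) and 2 rose (11.8%, near the 12.3% of all genes). The falls numbered 2 without vehicle replicate 3, and the rises 1 without JQ1 replicate 1 or 2 or vehicle replicate 2. The nuclear receptor gene Pparg stood at 5.64, 5.62 and 4.59 CPM with JQ1, against 12.99, 9.33 and 10.4 CPM with vehicle (-1.05 ± 0.15, adjusted p = 9.5e-05). Ppara, a fatty acid sensor of cardiomyocytes, stood at 178, 176 and 158 CPM with JQ1, against 247, 243 and 227 CPM with vehicle (-0.49 ± 0.09, adjusted p = 0.00068). Nrf1, a factor for respiratory chain genes, rose (0.68 ± 0.11).

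Contractile genes rose slightly where they were called. Of 22 adult sarcomere genes 6 rose (27.3%, beside 12.3% of all genes) and none fell (beside 14.9%), at a median of 0.22. Tnnt2, cardiac troponin T, stood at 4913, 5368 and 4592 CPM with JQ1, against 3942, 2945 and 3246 CPM with vehicle (0.55 ± 0.10, adjusted p = 0.00051). The Z-disc genes Actn2 (0.36 ± 0.07) and Ldb3 (0.36 ± 0.07) and the desmin gene Des (0.34 ± 0.08) rose without overlap. The myosin heavy chain genes Myh6 (0.30 ± 0.12, adjusted p = 0.074) and Myh7 (0.32 ± 0.12, adjusted p = 0.051) were not called, though all 3 JQ1 libraries lay above all 3 vehicle libraries in both. Myh7 was called without JQ1 replicate 3.

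Among 19 stress and fetal genes of cardiomyocytes 2 were called up and 1 down, with falls numbering 2 without JQ1 replicate 2 or vehicle replicate 3. These shares, 10.5% and 5.26%, lay below the 12.3% and 14.9% of all genes. The fall was of Acta1, the skeletal alpha-actin that returns in hypertrophy. Acta1 stood at 292, 272 and 359 CPM with JQ1, against 737, 650.4 and 618 CPM with vehicle (-1.12 ± 0.23, adjusted p = 0.0053). The natriuretic peptide genes were not called: Nppa stood at 38.5 to 50.2 CPM with JQ1 and 38.3 to 68.8 CPM with vehicle (-0.11 ± 0.25, adjusted p = 0.78), and Nppb at 23.6 to 73.8 CPM with JQ1 and 43.6 to 133 CPM with vehicle (-0.69 ± 0.49, adjusted p = 0.34). Hspb7, a chaperone gene of heart muscle, rose (0.41 ± 0.08), and so did the deubiquitinase gene Uchl1 (0.87 ± 0.19).

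Of 22 calcium handling genes 5 rose (22.7%, beside 12.3% of all genes) and 3 fell (13.6%, near the 14.9% of all genes). Pln, the gene that is mutant in PLNR9C mice, stood at 4070, 3970 and 3967 CPM with JQ1, against 4370, 4149 and 4046 CPM with vehicle (-0.07 ± 0.08, adjusted p = 0.57). Atp2a2, the calcium pump that phospholamban restrains, was not called (0.16 ± 0.10, adjusted p = 0.23). The inositol trisphosphate receptor gene Itpr1 rose (0.58 ± 0.09), and the plasma membrane pump gene Atp2b4 fell (-0.48 ± 0.12).

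Ion channel genes fell more often than they rose, with 8 of 25 lower and 3 higher (median -0.13). The falls numbered 5 without JQ1 replicate 3 or vehicle replicate 1 or 2, and the rises 5 without vehicle replicate 1. Kcnj11, the pore of an ATP-sensitive potassium channel, stood at 132, 154 and 148 CPM with JQ1, against 222, 191 and 197 CPM with vehicle (-0.49 ± 0.08, adjusted p = 0.00024). Kcnv2, a modifier subunit of potassium channels, stood at 29.9, 23.5 and 30.1 CPM with JQ1, against 53.6, 52.7 and 40.7 CPM with vehicle (-0.82 ± 0.14, adjusted p = 0.00045). Gja5, a connexin of conduction fibres and arteries, fell (-0.83 ± 0.14).

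Of 20 cardiac transcription factor genes 4 rose, or 2 without JQ1 replicate 2 or vehicle replicate 2, and 2 fell. The falls were of Irx4 (-0.55 ± 0.10) and Tbx5 (-0.52 ± 0.13), while Irx5 (0.92 ± 0.17) and Gata6 (0.34 ± 0.09) rose. In the circadian clock list 1 of 19 was called (5.26%, beside 12.3% of all genes for rises), the repressor gene Cry2 (0.38 ± 0.11, adjusted p = 0.016). That call was lost without JQ1 replicate 1 or vehicle replicate 2 (adjusted p up to 0.066). Falls in that list numbered 2 without JQ1 replicate 2 and 1 without JQ1 replicate 3 or vehicle replicate 2 or 3. Among 15 glucocorticoid responsive genes 1 was called (6.67%, beside 14.9% of all genes for falls), the receptor gene Nr3c1 (-0.28 ± 0.08, adjusted p = 0.014). That call was lost without JQ1 replicate 1 (adjusted p up to 0.097). Rises in that list numbered 1 without vehicle replicate 1.

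**Figure D3:**
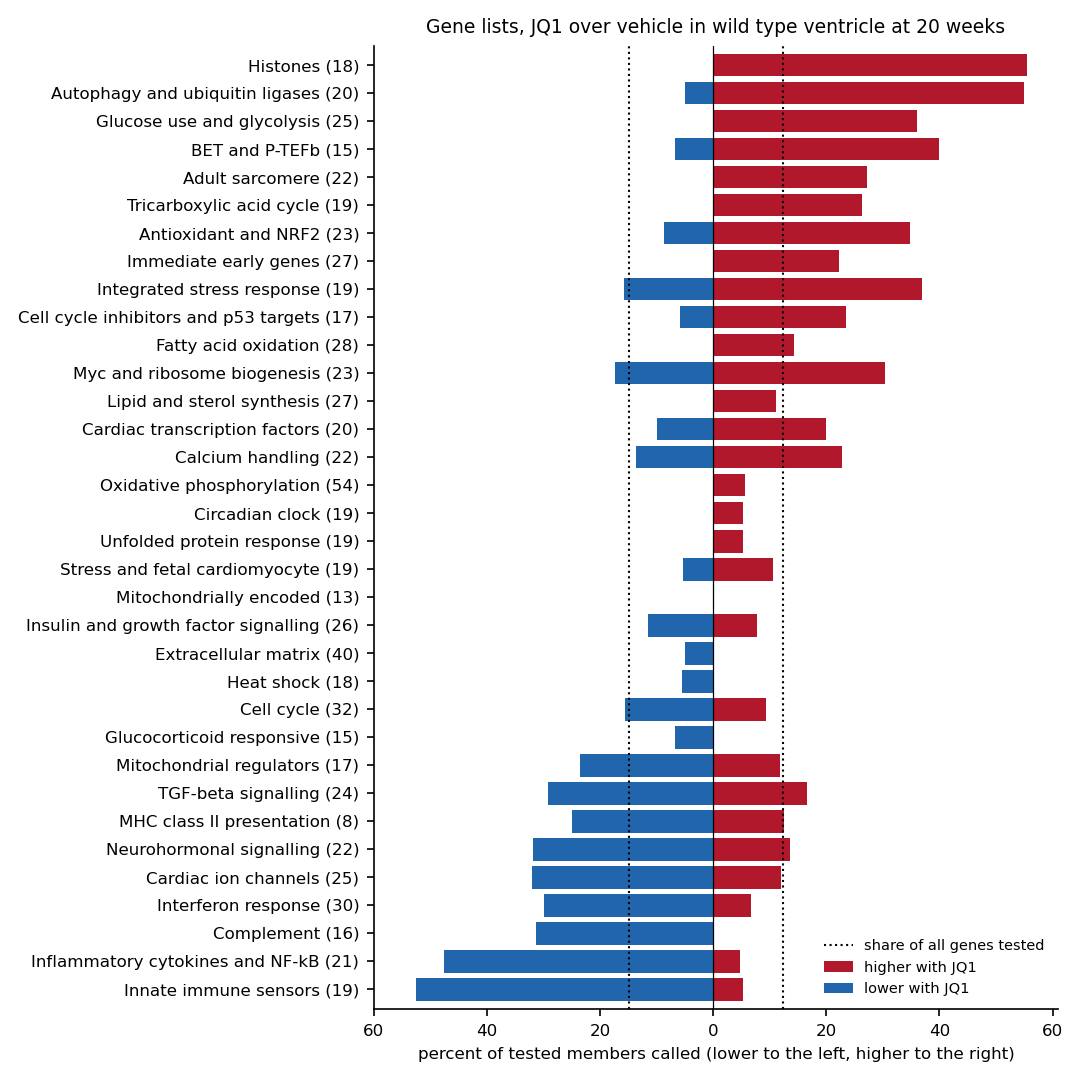
Percent of the tested members of each of the 34 pathway lists that were called higher (to the right) or lower (to the left) with JQ1, with the number tested in brackets. Dotted lines mark the shares over all genes tested, 12.3% higher and 14.9% lower. Histones and autophagy genes reach furthest to the right, and innate immune sensors and inflammatory cytokines and NF-kB furthest to the left.

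Markers of other cell types moved in part with these groups. Of 17 endothelial markers 7 fell (41.2%, beside 14.9% of all genes) and none rose (beside 12.3%), at a median of -0.23. The falls numbered 4 without JQ1 replicate 1 and 3 without JQ1 replicate 2 or vehicle replicate 3. Rises numbered 1 without vehicle replicate 3. Their summed level was 2398 to 2859 CPM with JQ1 and 2658 to 3135 CPM with vehicle, so the groups overlapped. Emcn stood at 21.5, 18.4 and 20.8 CPM with JQ1, against 24.9, 28.2 and 30.6 CPM with vehicle (-0.46 ± 0.09, adjusted p = 0.0016), and Tek (-0.44 ± 0.09) and Erg (-0.44 ± 0.11) fell too. Of 14 fibroblast markers 1 rose and 1 fell, 7.14% each and below the shares of all genes. The 14 summed to 2420 to 2916 CPM with JQ1 and 2421 to 2493 CPM with vehicle. The rise, Gsn (0.27 ± 0.08, adjusted p = 0.02), was lost without JQ1 replicate 3 or vehicle replicate 2 (adjusted p up to 0.083), and the fall, Pdgfra (-0.37 ± 0.11, adjusted p = 0.017), without JQ1 replicate 1 or 2 or vehicle replicate 2 or 3 (adjusted p up to 0.09). Of 14 smooth muscle and pericyte markers 3 fell (21.4%, beside 14.9% of all genes), Cspg4 (-0.56 ± 0.12) among them. The falls numbered 1 without JQ1 replicate 1 or vehicle replicate 3. Of 10 endocardial and lymphatic markers Nfatc1 rose (0.30 ± 0.08) and Npr3 fell (-0.56 ± 0.12), with falls numbering 3 without JQ1 replicate 2, 2 without JQ1 replicate 3 and 4 without vehicle replicate 1. The part of endothelial cells in the gene groups that fell was not tested.

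Macrophage markers summed to 319 to 372 CPM with JQ1 and 315 to 346 CPM with vehicle, and of 20 tested 3 fell and 1 rose. The falls numbered 1 without JQ1 replicate 2 or 3 or vehicle replicate 2. Ccr2, the receptor of recruited monocytes, had 0, 0 and 3 reads with JQ1 and 24, 29 and 37 reads with vehicle (adjusted p = 0.00037). The other falls, Aif1 and Mrc1, were each lost in 4 of 6 fits without 1 library. The part of macrophages in the falls of immune genes was not tested beyond these values.

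Red cell markers were higher: 3 of 5 tested rose, and the list summed to 251 to 416 CPM with JQ1 and 153 to 168 CPM with vehicle. The globin gene Beta-s stood at 151, 130.5 and 94.4 CPM with JQ1, against 55.8, 59.7 and 63.02 CPM with vehicle (1.07 ± 0.24, adjusted p = 0.0095). Alas2, the first enzyme of haem synthesis in red cells, rose (1.1 ± 0.27, adjusted p = 0.013), and so did Hba-a2 (1.07 ± 0.26, adjusted p = 0.015), whose call was lost without vehicle replicate 2 (adjusted p up to 0.054). Globin genes have near-identical copies, so the split between them is uncertain.

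Of 4 B cell markers tested Blk and Cd22 fell (50.0%, beside 14.9% of all genes). Blk stood at 3.05, 3.62 and 4.68 CPM with JQ1, against 14.6, 12.04 and 9.18 CPM with vehicle (-1.66 ± 0.17, adjusted p = 2.6e-06), while Ms4a1 and Cd79b had too few reads to be tested, and Blk had more RNA in cardiomyocyte pools than in non-myocyte pools. Of 6 neutrophil markers tested 1 fell (16.7%, near the 14.9% of all genes), Csf3r (-1.04 ± 0.24), with falls numbering 2 without JQ1 replicate 3. Of 10 epicardial and mesothelial markers 1 rose, Tbx18 (0.72 ± 0.16), and of 8 atrial markers 2 fell, Tbx5 and Nr2f2 (-0.45 ± 0.12). Of 6 skeletal muscle markers 1 fell (16.7%, near 14.9%), Acta1. None of the 7 adipocyte or 9 Schwann cell and neuron markers was called, though 5 of these 9 fell without JQ1 replicate 2. Xist, read from the inactive X chromosome of females, was low in all 6 libraries, 2.64, 5.75 and 3.27 CPM with JQ1, against 7.05, 12.8 and 7.503 CPM with vehicle (-1.22 ± 0.40, adjusted p = 0.045), beside Ddx3y of the Y chromosome at 102 to 107 CPM with JQ1 and 98.1 to 109.7 CPM with vehicle. The Xist call was lost without JQ1 replicate 1 or 3 or vehicle replicate 2 or 3 (adjusted p up to 0.15).

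A larger share of the genes with more RNA in non-myocytes fell than of those with more RNA in cardiomyocytes. In vehicle wild type mice at 16 weeks 12586 of 15823 genes (79.5%) differed between cardiomyocyte and non-myocyte pools, and those at least 2-fold apart were put in the class with more RNA. Of the 4692 genes with more RNA in non-myocytes 24.8% fell and 9.57% rose with JQ1 in ventricle, at a median of -0.20. Of the 4007 genes with more RNA in cardiomyocytes 10.3% fell and 11.9% rose, at a median of 0.04. Of the 6746 genes in neither class 769 fell and 1014 rose. Genes with more RNA in non-myocytes made up 70.6% of the at least 2-fold falls that could be sorted, against 30.4% of all genes sorted. Of the at least 2-fold rises that could be sorted they made up 39.6%, also above 30.4%, beside 14.7% with more RNA in cardiomyocytes. The at least 2-fold falls and rises were scarce, at median levels of 1.65 and 2.22 CPM, against 13.7 CPM over all genes tested. In the lowest of 3 equal groups of level, 2502 genes had more RNA in non-myocytes, 665 had more in cardiomyocytes and 1631 were in neither class. The 30.4% is therefore not a base of like level, and the shares of at least 2-fold changes were not compared at matched level. These classes come from libraries other than the 6 compared. The summed cardiomyocyte markers, given above, were higher in all 3 JQ1 libraries than in all 3 vehicle libraries. The most abundant marker alone reached 55080 CPM in that sum. Of the 12 markers 2 rose (16.7%, beside 12.3% of all genes), none fell and 1 had a log2 change below 0, at a median of 0.18. The part of a shift between cell types in the shares of these classes was not tested.

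Non-myocyte genes fell in larger shares at each level of expression. Among genes of low level 24.4% of the non-myocyte genes fell, against 13.8% of the cardiomyocyte genes, and at middle level 28.4% against 12.1%. At high level 19.2% of the non-myocyte genes fell and 19.6% rose, while 8.07% of the cardiomyocyte genes fell and 17.1% rose. By length, genes spanning under 5 kb fell in 8.55% of cases, and those of 5 to 20 kb, 20 to 100 kb and over 100 kb in 15.9%, 16.4% and 16.9%.

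**Figure D4:**
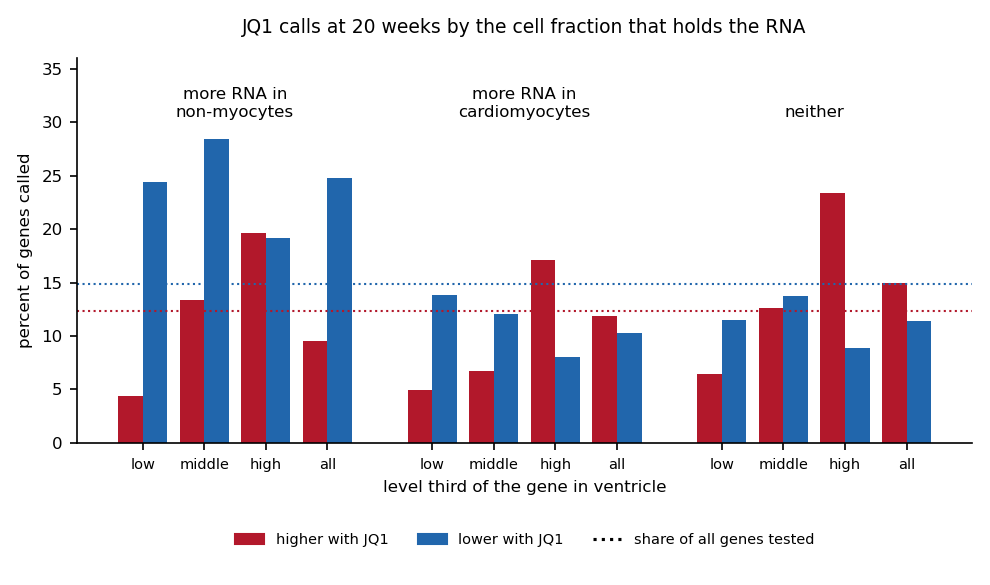
Percent of genes called higher or lower with JQ1 in wild type ventricle at 20 weeks, by the cell fraction that held more of the gene's RNA and by 3 equal groups of level in ventricle. Dotted lines mark 12.3% and 14.9%, the shares over all genes tested. The bar of non-myocyte genes that fell reaches 24.8% over all levels, above the 10.3% of cardiomyocyte genes.

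In wild type cardiomyocyte pools JQ1 called 513 of 14142 genes (3.63%), with 240 higher (1.7%) and 273 lower (1.93%), and in non-myocyte pools 5827 of 15347 (38.0%), with 2764 higher (18.0%) and 3063 lower (20.0%). These pools held fewer reads, at another age, and the labels do not say how many animals a pool combines. The cardiomyocyte count was 276 or lower in each fit without 1 of its libraries, and 109 without JQ1 replicate 3. Of the ventricle rises tested in cardiomyocytes, 222 of 1899 were called there the same way, and of the falls 246 of 2110, with none the opposite way. In non-myocytes 1285 of 1918 rises and 1466 of 2275 falls were called the same way, and 5 and 23 the opposite way. Called or not, 1829 of the 1899 rises and 1931 of the 2110 falls had the ventricle's sign in cardiomyocytes. In non-myocytes 1836 of 1918 and 2083 of 2275 had it. Pearson r with the ventricle changes across genes was 0.66 in cardiomyocytes and 0.67 in non-myocytes. The median standard error was 0.20 in cardiomyocytes and 0.16 in non-myocytes, so call counts alone do not compare the size of the response.

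Hexim1 was higher with JQ1 in both kinds of pool, at 91.3 ± 15.2 CPM with JQ1 and 30.6 ± 2.33 CPM with vehicle in cardiomyocytes (SD, n = 3 each) and at 184 ± 12.1 CPM with JQ1 and 72.9 ± 19.7 CPM with vehicle in non-myocytes (edgeR adjusted p = 0.00028 and 1.8e-05). Each kind of pool was scaled in its own fit, so these CPM compare JQ1 with vehicle within a kind of pool and not between kinds. Some steep falls were called in cardiomyocyte pools and not in non-myocyte pools. Olfml2b stood at 7.599 ± 1.41 CPM with JQ1 and 48.4 ± 5.84 CPM with vehicle in cardiomyocytes (adjusted p = 0.00064) and at 27.7 ± 11.7 CPM with JQ1 and 30.9 ± 3.09 CPM with vehicle in non-myocytes (adjusted p = 0.65). Frmd5 stood at 100.4 ± 21 CPM with JQ1 and 306 ± 101 CPM with vehicle in cardiomyocytes (adjusted p = 0.0063) and at 11 ± 2.14 CPM with JQ1 and 12.6 ± 4.95 CPM with vehicle in non-myocytes (adjusted p = 0.66). Acta1 stood at 352 ± 95.7 CPM with JQ1 and 1043 ± 179 CPM with vehicle in cardiomyocytes (adjusted p = 0.003, against 0.97 in non-myocytes). Whether the effect differed between the pools was not tested for these genes. Cd3e stood at 30.6 ± 7.43 CPM with JQ1 and 2.43 ± 1.59 CPM with vehicle in cardiomyocytes (adjusted p = 0.027) and at 3.77 ± 1.19 CPM with JQ1 and 2.02 ± 0.7499 CPM with vehicle in non-myocytes (adjusted p = 0.038).

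In non-myocyte pools, where JQ1 called 20.0% of all genes lower and 18.0% higher, 20 of 30 interferon response genes were called lower. All 8 MHC class II genes were also lower with JQ1, and so were 12 of 20 macrophage markers. In the same pools 20 of 22 sarcomere genes, 51 of 54 oxidative phosphorylation genes and 10 of 12 cardiomyocyte markers were higher, the markers at a median of 1.59. The part of cardiomyocyte RNA in the non-myocyte pools in these shifts was not tested.

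At 8 weeks wild type ventricle gave 3812 calls among 15504 genes (24.6%, with 11.7% higher and 12.8% lower), many of them shared with 20 weeks. Of 1948 rises at 20 weeks tested at both ages 1316 were also called at 8 weeks, 67.6% of these rises and 72.4% of the rises at 8 weeks. Of 2332 falls 1415 were, 60.7% and 71.3%, and no gene was called in opposite directions. Across 15436 genes the log2 changes at both ages had a Pearson r of 0.79 and a Spearman rho of 0.77, a description over genes, which are not independent replicates. The ages share no library. The test of the difference between the ages called 0 of 15504 genes in edgeR (0.0%), with 600 at an unadjusted p under 0.05, and 1 gene in DESeq2. With a median standard error of 0.19 for that difference, small differences between the ages were not detectable. Large differences with a wide error could go uncalled too, as that of Cd3e did. The Hexim1 change was 2.47 at 20 weeks and 2.48 at 8 weeks. Cd3e averaged 17.8 ± 7.16 CPM with JQ1 and 0.426 ± 0.0945 CPM with vehicle at 20 weeks, and 1.68 ± 1.14 CPM with JQ1 and 0.369 ± 0.0827 CPM with vehicle at 8 weeks. Its log2 change at 20 weeks less that at 8 weeks was 3.198 ± 1.062, not called (edgeR adjusted p = 0.9998).

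PLNR9C ventricle at 20 weeks gave 5097 calls for JQ1 (31.9%, with 15.9% higher and 16.1% lower). The edgeR test of its difference from wild type called 57 of 15971 genes (0.357%), with 1641 at an unadjusted p under 0.05. With a median standard error of 0.19 for that difference, genes not called are not shown to respond alike. Of the wild type rises 1348 of 1960 were also called in PLNR9C (68.8%, and 53.2% of the PLNR9C rises) and of the falls 1541 of 2378 (64.8% and 60.1%), with 11 and 9 called in the opposite direction. Chac1 and Kcnv2 fell in wild type and rose in PLNR9C, by 0.50 and 0.83 on the log2 scale. The PLNR9C minus wild type difference was 1.74 ± 0.21 (adjusted p = 0.0012) for Chac1 and 1.65 ± 0.25 (adjusted p = 0.016) for Kcnv2, the Kcnv2 call being lost without PLNR9C JQ1 replicate 1 (adjusted p = 0.066). Xirp2, an actin-binding protein gene of the intercalated disc, fell in PLNR9C (-1.25), while in wild type it stood at 1089, 980.1 and 1076 CPM with JQ1, against 1051, 954 and 1014 CPM with vehicle (0.06 ± 0.13, adjusted p = 0.78). The Xirp2 difference was -1.31 ± 0.19 (adjusted p = 0.016). Without 1 library the count of 57 ran from 8, without PLNR9C JQ1 replicate 1, to 87, without wild type JQ1 replicate 1. Of 54 oxidative phosphorylation genes 49 rose in PLNR9C, against 3 in wild type, and the difference of these counts was not tested.

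**Figure D5:**
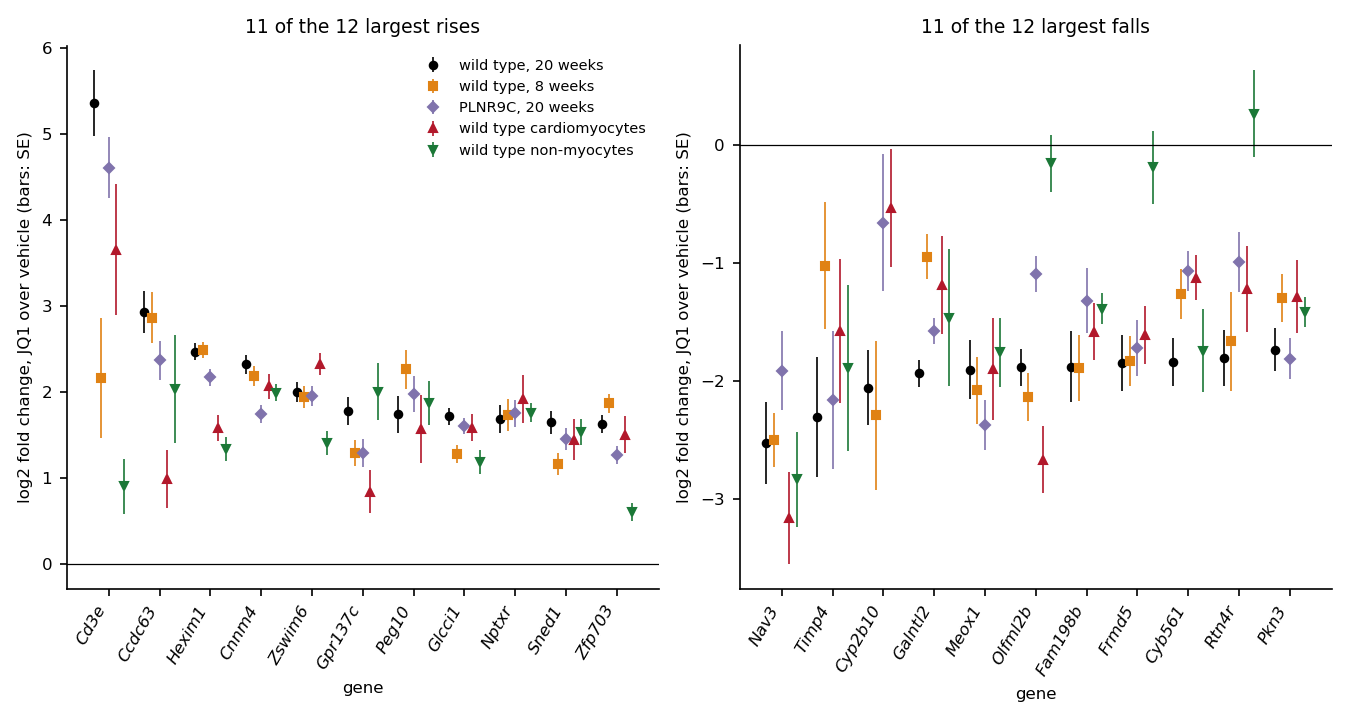
Log2 fold change of JQ1 over vehicle, with its standard error (bars), for 11 of the 12 steepest rises (left) and falls (right) of wild type ventricle at 20 weeks, in that ventricle and in the other comparisons (8 weeks, PLNR9C, cardiomyocyte pools, non-myocyte pools). The 11 rises are above 0 in all 5 comparisons, and of the 11 falls Rtn4r alone is above 0 in one of them, the non-myocytes, where Cyp2b10 was not tested.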

How the data were processed

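RNA was isolated with TRIzol and libraries prepared with Nextera, per the labels' protocols. The authors deposited raw counts, whole numbers of reads per gene and library, and these were used. They also deposited RPKM values, which equal reads over length and library size within 0.1% and entered no test. The submitters' processing notes name STAR 2.4.1b, GRCm38 and mm10 without a role. The counting tool, annotation and strand setting are unknown from these sources, so overlapping, antisense and near-identical genes cannot be told apart.

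The 12 ventricle libraries of 20 weeks were fitted together in edgeR 4.0.16 (R 4.3.3) with filterByExpr by group, TMM scaling, glmQLFit with robust estimation, glmQLFTest and Benjamini-Hochberg adjustment. The standard error is the log2 change over the square root of F. Comparisons with 8 weeks and the cell pools had fits of their own. Alternatives were RLE scaling, no filter, DESeq2 1.42.0, a replicate block, the 6 libraries alone, glmTreat at 1.2-fold, a term for the digits of the label number, and each library left out in turn. In vehicle pools replicate numbers pair cardiomyocytes with non-myocytes (correlations of deviations 0.198, 0.128 and 0.274). In data simulated with these groups, 100 genes were changed 1.5-fold and 100 were changed 2-fold. Of these 44% and 68% were recovered, with 9 false calls among 15655 genes. Far fewer genes were changed there than the 27.2% called here, so these rates need not hold for the real comparison. Named genes were the 12 largest called rises and falls with at least 10 CPM in the higher group, without overlap of the groups and with a symbol that is no clone name (AK numbers counted as such), up to 4 members of a list by p-value, 5 per direction of a tested difference, and fixed genes such as Myc. The 50 lists and the comparison were chosen with earlier results of these data known. Some genes that met these rules are not reported here.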

Additional observations from a re-analysis of the deposited data

Results flagged for a closer look

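The JQ1 effect differed between the genotypes at 20 weeks, in edgeR's quasi-likelihood test of the difference with Benjamini-Hochberg adjustment, for 10 named genes. Each value is the log2 change in PLNR9C less the log2 change in wild type. It was 1.74 ± 0.21 (adjusted p = 0.0012) for Chac1, 1.72 ± 0.30 (adjusted p = 0.028) for Fcrls, 1.65 ± 0.25 (adjusted p = 0.016) for Kcnv2, 1.598 ± 0.24 (adjusted p = 0.028) for Efnb3 and 1.49 ± 0.27 (adjusted p = 0.028) for Cxcr4. It was -1.397 ± 0.24 (adjusted p = 0.028) for Nkd2, -1.31 ± 0.19 (adjusted p = 0.016) for Xirp2, -1.28 ± 0.24 (adjusted p = 0.028) for Mthfd2, -1.199 ± 0.24 (adjusted p = 0.0498) for Ncam1 and -1.17 ± 0.24 (adjusted p = 0.043) for Uchl1. Fcrls, an Fc receptor-like gene, averaged 11.7 ± 1.72 CPM with JQ1 and 16.04 ± 3.08 CPM with vehicle in PLNR9C (SD, n = 3 each), and in wild type stood at 1.19, 0.7703 and 0.8297 CPM with JQ1, against 3.77, 5.11 and 3.599 CPM with vehicle. Efnb3, an ephrin gene, averaged 18.97 ± 4.45 CPM with JQ1 and 5.89 ± 1.13 CPM with vehicle in PLNR9C, and in wild type stood at 146, 129 and 123 CPM with JQ1, against 138, 117 and 114 CPM with vehicle. Xirp2 averaged 2233 ± 568 CPM with JQ1 and 5301 ± 412 CPM with vehicle in PLNR9C. The calls for Chac1 and Xirp2 held in all 12 fits without 1 library, that for Kcnv2 in 11, for Efnb3 in 10, for Nkd2 and Fcrls in 9, for Mthfd2 and Cxcr4 in 5, for Uchl1 in 3 and for Ncam1 in 2.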

How the results depend on the processing

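The 1960 rises and 2378 falls stayed within 1.5 times under RLE scaling (2095 and 2292), no filter (1877 and 2319), DESeq2 (2190 and 2383), the 6 libraries alone (1568 and 1776), and a term for 3 or 4 digits in the label number, which sets replicate 1 apart (1764 and 1956). Against a change of 1.2-fold, glmTreat called 714 and 1298, a stricter null by construction. Without 1 library the rises numbered 1677 to 1906 and the falls 1818 to 2059, and those of at least 2-fold 233 to 281 and 679 to 819. Single calls moved more than these totals. Of the 4338 calls 75.3% to 82.0% were kept in the same direction without 1 library, and 75.7% with the 6 libraries alone. No named gene changed the sign of its JQ1 effect where the main or the altered fit called it. Genes called in neither could change sign: without 1 library Nppa ran from -0.25 to 0.22 and Col1a1 from -0.29 to 0.25. Of 166 called named genes 142 to 157 stayed called without 1 library and 107 with glmTreat. Replicate numbers do not pair these libraries (same-number correlations 0.082, 0.033 and -0.001), and a replicate block gave 1847 rises and 2240 falls. The genotype difference, 57 genes, became 127 with no filter, 209 with DESeq2, 77 with the block and 8 to 87 without 1 library. Of its low counts, 10 came without PLNR9C JQ1 replicate 3, 15 without wild type JQ1 replicate 2 and 17 without PLNR9C vehicle replicate 2. The age difference called 1 gene with DESeq2 and 0 otherwise. Cardiomyocyte calls, 513, became 872 with DESeq2, 343 with the block and 109 to 276 without 1 library; non-myocyte calls, 5827, became 4835 to 5088 without 1 library. The fraction contrast gave 12660 with the block, against 12586. The cause of these moves was not tested. Floors cover counting error only.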

Other observations

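Clock genes varied within both groups, with replicate 1 of each apart from the other libraries of its group in Arntl and Per2, and JQ1 replicate 1 in Nr1d1 (genes chosen after their values were seen). Replicate 1 of both groups has a label number of 3 digits and the other replicates have 4. Nr1d1, a repressor of the clock, stood at 27.2, 296 and 187 CPM with JQ1, against 146, 308 and 158 CPM with vehicle (-0.26 ± 0.80, adjusted p = 0.85). Arntl, which Nr1d1 represses, stood at 10.8, 4.17 and 6.101 CPM with JQ1, against 1.21, 3.73 and 3.701 CPM with vehicle (1.28 ± 0.55, adjusted p = 0.12). Per2 stood at 60.1, 25.3 and 25.8 CPM with JQ1, against 111, 44.96 and 57.2 CPM with vehicle (-0.95 ± 0.54, adjusted p = 0.24). None of the 3 was called by edgeR, and the labels do not give the time of day at which tissue was taken. Pdk4, which restrains pyruvate oxidation, stood at 708, 703 and 1305 CPM with JQ1, against 306, 433 and 834 CPM with vehicle (0.79 ± 0.44, adjusted p = 0.23), with replicate 3 the highest in each group.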
